A study of Mus musculus with 9 samples.

Results

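The regions described here are the flanks of the most constant lamina-associated domains of the embryonic mouse heart. A core was an unbroken stretch of an autosome (chromosomes 1 to 19) of at least 200 kb chosen by domain calls alone, as it had to lie inside a called domain in all 7 Lamin B1 samples. A flank was the 200 kb just outside each core end, cut at the midpoint where 2 flanks met. There were 419 cores and therefore 838 flanks, out of 21000 domain ends in the 7 lists together and 1728 ends of shared autosomal stretches of any length. The cores held 235.2 Mb in all. The median core had 416 kb and the longest 3289 kb. The flanks summed to 143.6 Mb, or 5.82% of the autosomes up to their furthest domain end. Of the flanks, 612 had the full 200 kb, 224 were cut at a midpoint and 2 stopped at the furthest domain end of their chromosome. The shortest flank was 19 kb.

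Lamins are intermediate filament proteins that line the inner face of the nuclear envelope, and Lamin B1 is the lamin most used to map the chromatin that lies against it. The mapped stretches, lamina-associated domains, are long, poor in active genes and late replicating, and their edges are often sharp. Some of them are held in many cell types, while others differ from one cell type to the next. Chromatin bound by Lamin B1 was precipitated and sequenced from whole hearts of CD1 mouse embryos, an outbred stock, at embryonic day 9.5 (E9.5, 4 samples, each a pool of 3 litters) and embryonic day 12.5 (E12.5, 3 samples, each a pool of 6 embryos). A whole heart mixes muscle, endocardial and other cells, so a border in these lists is that of a mixture. Age and kind of pool changed together and cannot be told apart. The 2 input libraries, 1 for each age, were not analysed here.

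Every list held 1500 domains, so a stretch called in one place has to be seen beside the rest of its list. The domains of the E9.5 samples covered 782.5 Mb ± 18.1 (SD, n = 4) of the autosomes and those of the E12.5 samples 780.9 Mb ± 7.88 (SD, n = 3), a share of 31.7% for each age. The lists carry no signal or read count, so depth is unknown and the number of samples limits the precision. A gene annotation of the files' build, mm9, was not used here, and genes were not placed in the flanks.

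Membership rested on the same 7 lists in which the flanks were then measured, so the values of the flanks are a description and have no test. Reach is the distance from a core end to the end of the domain that holds the core in a given sample, its parent domain, measured in full even beyond the flank. By the rule, at least 1 sample has a reach of 0 at every core end. A single sample set 825 of the 838 ends and 2 samples set the other 13. E9.5 replicates 1 to 4 had a reach of 0 at 65, 50, 136 and 94 ends, and E12.5 replicates 1 to 3 at 163, 172 and 171. An E12.5 sample therefore set more ends than any E9.5 sample, with E9.5 replicate 3 the nearest. Near the length limit, the 33 cores of 200 to 219 kb had a mean reach of 582 kb at E9.5 and 517 kb at E12.5, and the 22 shared stretches of 180 to 199 kb, just too short to be cores, had 784 and 499 kb.

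The share of flank length inside domains declined slowly with distance and stayed well above the level of the autosomes out to 200 kb. In the first 10 kb outside the core, 88.5% ± 4.60 (SD, n = 4) of the length was in domains at E9.5 and 78.6% ± 0.618 (SD, n = 3) at E12.5. At 90 to 100 kb the shares were 73.2% ± 6.30 and 61.8% ± 0.617. At 190 to 200 kb they were 63.0% ± 4.91 and 52.9% ± 0.386. In each of the 20 steps of 10 kb every E9.5 sample lay above every E12.5 sample, and the difference between the age means was nearly the same at both edges of the flank. The steps are not separate results, as a domain often spans many of them. Just outside the core the shares are shaped by which samples set the core ends. Reach was 0 at 10.3% ± 4.52 of the ends at E9.5 and 20.1% ± 0.589 at E12.5.

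**Figure D1:**
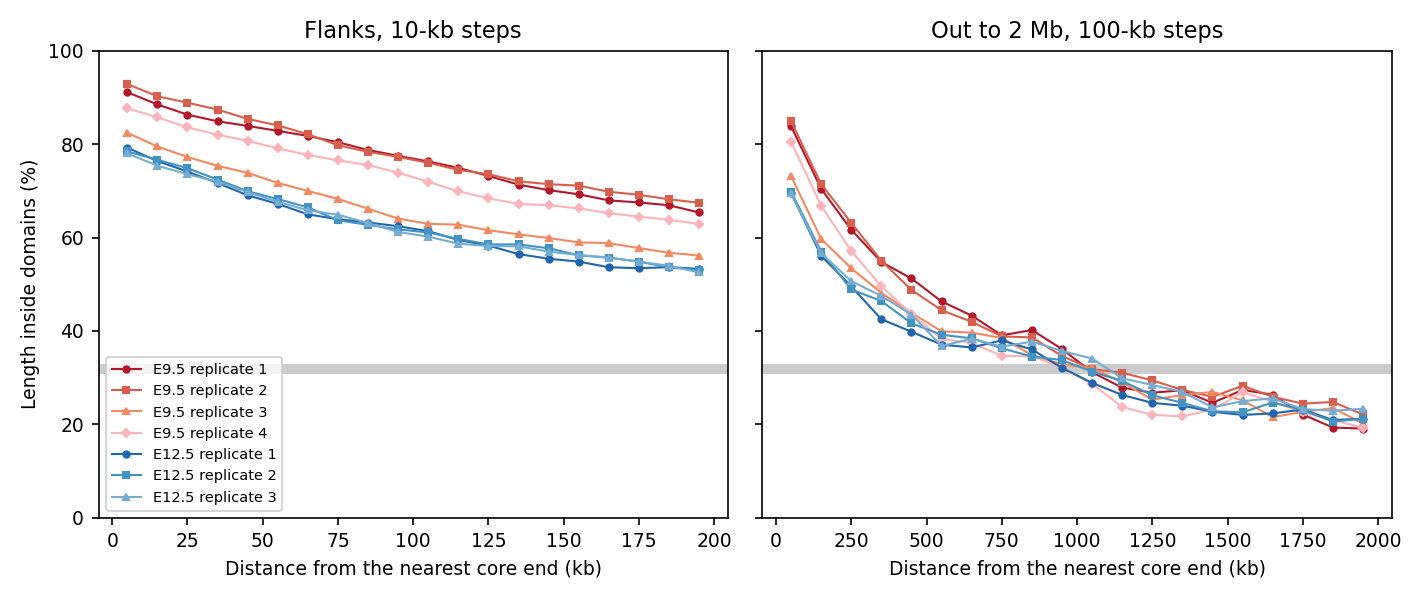
Share of length inside domains (%, vertical axis) against distance from the nearest core end (kb, horizontal axis), 1 line per sample, in 10-kb steps over the flanks (left) and in 100-kb steps out to 2 Mb with the cores left out (right). The grey band spans the 7 samples' share of all autosomal length. The 3 E12.5 lines lie close together below the 4 E9.5 lines in the flanks, and all lines meet the band near 1000 kb.

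Over the whole flank length, E9.5 replicates 1 to 4 had 77.7%, 78.8%, 67.1% and 74.3% in domains. E12.5 replicates 1 to 3 had 63.4%, 64.0% and 63.6%. The means were 74.5% ± 5.30 (SD, n = 4) and 63.7% ± 0.292 (SD, n = 3), a difference (E12.5 minus E9.5) of -10.8 percentage points. The ages did not overlap, but E9.5 replicate 3 was closer to the E12.5 samples than to the other E9.5 samples. In length, E9.5 domains held 106.9 Mb ± 7.61 of flank and E12.5 domains 91.4 Mb ± 0.419. Outside cores and flanks the order of the means was the other way, 440.3 Mb ± 12.3 for E9.5 against 454.3 Mb ± 7.91 for E12.5, and there the ages overlapped.

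Each list has in its name a number whose meaning is not given, 0.17, 0.15, 0.14 and 0.12 for E9.5 replicates 1 to 4 and 0.12, 0.12 and 0.13 for E12.5 replicates 1 to 3. The 3 lists with 0.12 were those of E9.5 replicate 4 and E12.5 replicates 1 and 2. Among these lists the difference was -10.6 percentage points in flank share and -156 kb in mean reach. With a single E9.5 sample it has no spread at that age.

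Beyond the flanks, each position outside the cores was placed by its distance to the nearest core. Between 200 and 300 kb, 58.8% ± 4.44 (SD, n = 4) was in domains at E9.5 and 49.7% ± 0.902 (SD, n = 3) at E12.5. The ages first overlapped at 500 to 600 kb, with 42.3% ± 3.76 and 37.7% ± 1.32. At 900 to 1000 kb the shares were 34.0% ± 1.78 and 33.9% ± 1.81, close to the autosomal share. Further out, the ages overlapped in every 100-kb step up to 2 Mb except 1500 to 1600 kb, where all E9.5 samples were higher (26.9% ± 1.31 and 23.2% ± 1.57).

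Most flanks were either wholly inside a domain or crossed by a single border. At E9.5, 62.9% ± 3.90 (SD, n = 4) of the flanks lay wholly in domains, 29.7% ± 1.72 in part and 7.37% ± 5.02 not at all. At E12.5 the shares were 52.7% ± 0.276 (SD, n = 3), 30.7% ± 1.09 and 16.7% ± 0.904. The partly covered class thus differed little between ages, and the E12.5 samples had fewer full and more empty flanks. A domain other than the parent entered 5.79% ± 1.56 of the flanks at E9.5 and 5.77% ± 0.497 at E12.5. Such domains held 3.23 Mb ± 1.14 and 2.93 Mb ± 0.0870 of the flank length, in that order, and the rest of the covered length belonged to the parent domain.

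Flanks on which the samples were unanimous were few. Next to the core this is fixed by the rule, as the domain of at least 1 sample ends at every core end. At 50 kb from the core, 466 of the 788 flanks that reach so far were still in domains of 6 samples, and 5 were in domains of none. At 200 kb, 49 of 612 flanks were in domains of all 7 samples again, 160 of 6, 124 of 5 and 58 of none. The mean number of samples in a domain fell from 5.98 at 1 kb, where the rule allows at most 6, to 4.10 at 200 kb.

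Parent domains ran far past most core ends. The median reach of E9.5 replicates 1 to 4 was 375.5, 435, 285.5 and 354 kb. In E12.5 replicates 1 to 3 it was 219, 230.5 and 235 kb. No E9.5 sample was as low as any E12.5 sample. The mean reach averaged 684 kb ± 80.0 (SD, n = 4) over the E9.5 samples and 508 kb ± 27.6 (SD, n = 3) over the E12.5 samples, which differed by -176 kb (E12.5 minus E9.5). With cores inside domains of at least 6 of the 7 samples, which lets 1 sample end short of a core end, the difference was -91.3 kb over the core ends that lay in a domain. It rests mostly on long extensions: with reach counted only to the outer edge of the flank, the difference was -18.1 kb. A reach of at least 1 Mb was found at 24.2% ± 3.15 of the ends at E9.5 and 16.8% ± 0.835 at E12.5. A reach under 50 kb was found at 19.7% ± 4.63 and 30.7% ± 0.689. At the 612 ends whose flank was not cut, the mean reach was 524 kb ± 54.0 (SD, n = 4) and 366 kb ± 21.4 (SD, n = 3).

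**Figure D2:**
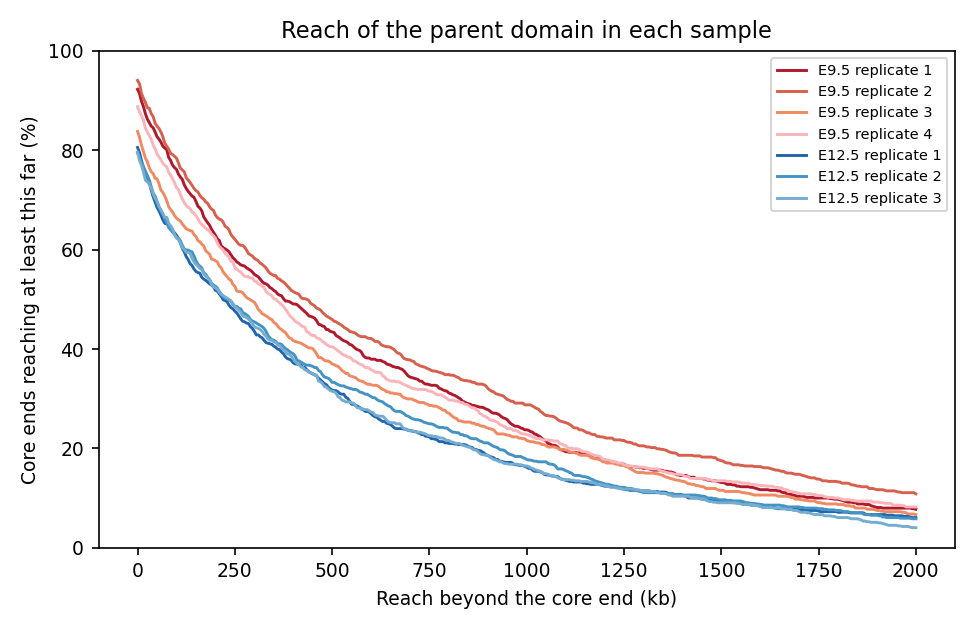
Percentage of the 838 core ends (vertical axis) whose parent domain reaches at least the distance on the horizontal axis (kb), 1 line per sample. The curves start below 100% because ends with a reach of 0 are counted only as not reaching. At 200 kb the E9.5 samples lie between 57.8% and 66.9%, and the E12.5 samples between 51.8% and 52.6%.

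The parent domains were longer at E9.5, although domains in general were not. The median parent domain of an E9.5 sample had 1324 kb ± 55.2 (SD, n = 4) and that of an E12.5 sample 1029.8 kb ± 54.2 (SD, n = 3). The median over all autosomal domains went the other way, with 238 kb ± 7.65 and 311 kb ± 0.577. The cores lay in 296 ± 11.2 parent domains at E9.5 and in 321 ± 2.65 at E12.5, and 85.3 ± 4.11 and 70.3 ± 3.21 of these held more than 1 core. Of the parent domain length, 51.7% ± 1.61 was core in the E9.5 samples and 57.0% ± 0.201 in the E12.5 samples.

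Neighbouring cores were often joined by a single domain. A gap of under 400 kb separated 112 pairs of neighbouring cores, with a median of 165.5 kb. E9.5 replicates 1 to 4 bridged 88, 96, 80 and 89 of these gaps with 1 domain, and E12.5 replicates 1 to 3 bridged 77, 78 and 77. By the rule each gap is open in at least 1 sample. Where a parent border did fall inside the flank, the next domain outward began a median of 329.9 kb ± 42.9 (SD, n = 4) further on in the E9.5 samples and 375 kb ± 25.1 (SD, n = 3) in the E12.5 samples, and the ages overlapped.

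Reach was then compared end by end. The ends are not separate borders, as the 419 cores lay in 296 ± 11.2 parent domains at E9.5 and 321 ± 2.65 at E12.5. A domain that holds more than 1 core has the same outer border counted at more than 1 end. The reach was larger in all 4 E9.5 samples than in all 3 E12.5 samples at 98 of the 838 ends (11.7%), where 11.3% of the ends of all shared autosomal stretches met the same condition. It was larger in all E12.5 samples at 36 ends (4.30%), against 5.03% of all shared stretches. Both shares were near the background, so the cores of at least 200 kb are not set apart by them. At the 890 ends of shorter stretches the shares were 11.0% and 5.73%. The mean reach was larger at E9.5 at 530 ends (63.2%), where all shared stretches gave 61.5%. The exact p of a single end cannot go below 0.0286 with 4 and 3 samples, and no single end could pass an adjustment over all ends.

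**Figure D3:**
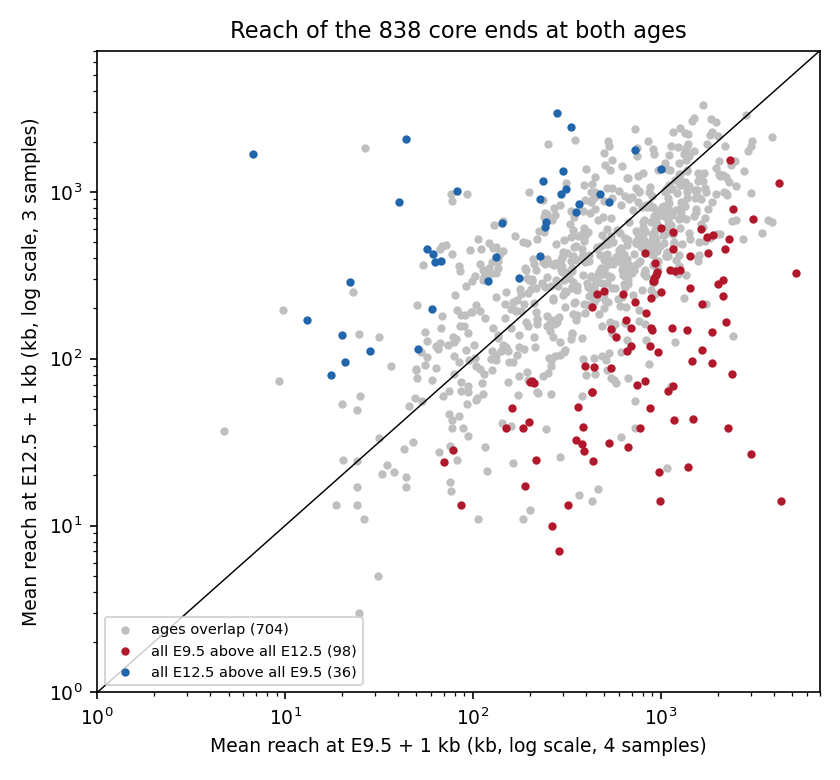
Mean reach plus 1 kb at E12.5 (vertical axis, 3 samples) against E9.5 (horizontal axis, 4 samples) for the 838 core ends, both in kb on log scales, with the line of equal reach. Red marks the 98 ends where every E9.5 sample lies above every E12.5 sample, blue the 36 ends of the opposite kind, and grey the other 704.

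Counted by covered flank length instead of reach, 46 flanks (5.49%) had more in every E9.5 sample and 15 (1.79%) more in every E12.5 sample. Windows of 200 kb were tiled along the autosomes, and 7356 of them held part of a domain of at least 1 sample and no part of a core. Of these, 4.93% and 4.38% met the same conditions. The mean share was larger at E9.5 in 540 flanks (64.4%) and in 50.6% of the windows. Unlike the flanks, these windows were not chosen to adjoin a core, but nothing kept them from lying beside one and overlapping a flank. Also, 226 of the flanks are shorter than a window.

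Where the ages did not overlap in reach, their means differed by long distances. The condition itself favours large differences, as reach spanned a median of 1008.5 kb over the 7 samples. At the 98 ends larger at E9.5 the age means differed by a median of 651 kb (46.3 to 4909 kb), and at the 36 ends larger at E12.5 by a median of 387 kb (62.2 to 2684 kb). Only 3 and 4 of these ends moved by less than 100 kb. Of the 419 cores, 6 had both ends larger at E9.5 (1.43%), 3 had both larger at E12.5 (0.716%) and 2 had 1 end of each kind (0.477%). No share over all shared stretches is given beside these, and whether the 2 ends of a core go together was not tested.

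The largest difference lay on chromosome 16, between 78587001 and 84703000 (mm9). E9.5 replicates 2, 3 and 4 each had a single domain there, of 6033, 5752 and 5997 kb, and E9.5 replicate 1 had 2, the longer of 5089 kb. E12.5 replicates 1 to 3 had 3, 5 and 4 domains, with a longest of 3921, 1888 and 2924 kb. The bounds of the locus are the outermost ends, in any sample, of the parent domains at its named core ends. The age with the longer domains is thus favoured in the share of the locus by construction. The share of the locus in domains was 94.0% to 98.6% at E9.5 and 80.5% to 88.9% at E12.5. The shorter reach at E12.5 there went with breaks inside a stretch that was mostly covered at both ages. To the right of the core at 79745001 to 80068000, the domains of E12.5 replicates 1 to 3 ended after 13, 26 and 0 kb, while those of E9.5 replicates 1 to 4 ran on for 3720, 4635, 4358 and 4606 kb. A stretch of 120 kb, from 80094001 to 80214000, was outside the domains of all 3 E12.5 samples and inside those of all 4 E9.5 samples. A longer break was shared by E12.5 replicates 2 and 3, which had none of their domains from 466 to 1046 kb and from 520 to 864 kb past the start of the first core, in that order, while E12.5 replicate 1 and all 4 E9.5 samples had a domain across it. The remaining breaks at E12.5 did not overlap between samples. Of the 5 ends named for the largest difference in mean reach with E9.5 higher, 4 lie in this locus and share its long domain. They are therefore not separate events.

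Chromosome 3 held the counterpart, between 60319001 and 64138000, with bounds set in the same way. E12.5 replicates 1 to 3 each had 1 domain there, of 3585, 3000 and 3519 kb. E9.5 replicates 1 to 4 had 5, 5, 3 and 4 domains, the longest of 740, 1523, 1316 and 671 kb. The E9.5 samples covered 42.9% to 69.8% of the locus and the E12.5 samples 78.6% to 93.9%. To the left of the core at 62338001 to 62692000, the E9.5 domains ended after 0, 9, 6 and 8 kb, a spread of under 10 kb, while those at E12.5 ran on for 1825, 1528 and 1719 kb. The stretch from 62136001 to 62329000 (193 kb) was outside every E9.5 sample's domains and inside every E12.5 sample's. Again 4 of the 5 named ends share this 1 locus.

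**Figure D4:**
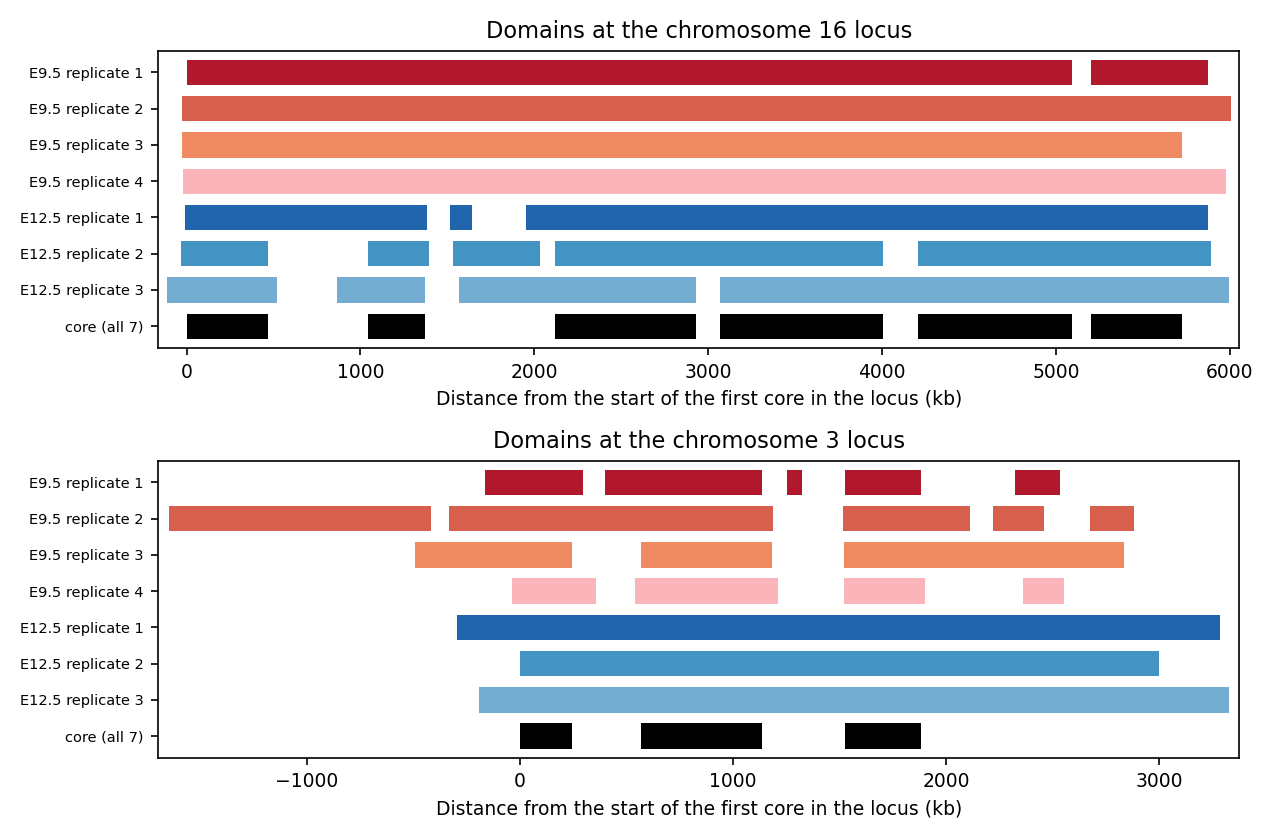
Domains of each sample (coloured bars) and cores (black bars) at the chromosome 16 and chromosome 3 loci, drawn to scale against the distance (kb) from the start of the first core. At the chromosome 16 locus the E9.5 samples have 1 or 2 domains and the E12.5 samples 3 to 5. At the chromosome 3 locus each E12.5 sample has 1 domain and the E9.5 samples have 3 to 5.

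The remaining named ends of this kind lay on chromosomes 9 and 15. On chromosome 9, to the left of the core at 19648001 to 20091000, the E9.5 domains ran on for 3164, 3147, 3207 and 2546 kb, and the E12.5 domains ended after 11, 67 and 0 kb. This locus ran from 16441001 to 20268000, with bounds set in the same way. It was covered to 92.6% to 95.9% at E9.5 and to 69.4%, 69.4% and 33.2% in E12.5 replicates 1 to 3. On chromosome 15, to the right of the core at 69479001 to 70678000, the reach was 929, 1033, 0 and 928 kb at E9.5 and 2230, 2070 and 1042 kb at E12.5. There the nearest samples of the 2 ages, E9.5 replicate 2 and E12.5 replicate 3, were only 9 kb apart.

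A few borders were held in place by all samples. The reach spanned at most 100 kb over the 7 samples at 24 of the 838 ends (2.86%) and at most 50 kb at 6, while it spanned at least 1 Mb at 423 ends (50.5%). The steadiest flank of at least 50 kb lay on chromosome 6, right of the core at 130428001 to 131194000. Its reach was 16, 9, 18 and 28 kb at E9.5 and 19, 0 and 18 kb at E12.5. Next was chromosome 14, right of 41276001 to 41504000, with 29, 23, 29 and 12 kb at E9.5 and 0, 26 and 11 kb at E12.5. The others of the 5 steadiest were the right flanks of 114442001 to 115305000 on chromosome 3 (range 35 kb), of 18885001 to 21058000 on chromosome 17 (range 41 kb) and of 40073001 to 40422000 on chromosome 11 (range 49 kb). At all 5 the ages overlapped. They were chosen for their small range, so this is a description of them.

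The reach at the ends of the 3 longest cores spanned 62 to 931 kb over the 7 samples, below the median span of 1008.5 kb over all ends. The core on chromosome 18 from 85681001 to 88970000 ended on its right with a reach of 23, 57, 12 and 0 kb at E9.5 and 61, 17 and 66 kb at E12.5. On its left, E9.5 replicate 1 and E12.5 replicate 3 reached 573 and 494 kb, and the other 5 samples 0 to 85 kb. The core on chromosome 2 from 174982001 to 177553000 had a reach of 0 to 241 kb on its left and 0 to 111 kb on its right. The core on chromosome 8 from 19703001 to 22044000 had a left border within 3 kb in 5 samples, with E9.5 replicates 3 and 4 at 28 and 62 kb. On its right the reach was 116, 0, 582 and 211 kb at E9.5 and 860, 931 and 929 kb at E12.5, so that all E12.5 samples lay above all E9.5 samples.

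At the core ends, samples of the same age placed their borders more alike at E9.5 on average. Borders of 2 samples lay within 10 kb of each other at 8.25% of the ends between E9.5 samples (6 pairs, 6.92% to 9.67%), at 5.97% between E12.5 samples (3 pairs, 5.49% to 6.44%) and at 5.37% between ages (12 pairs, 3.22% to 7.64%). The median distance between the borders of 2 samples was 180 kb on average within E9.5 (136 to 240 kb), 245 kb within E12.5 (232 to 256.5 kb) and 295 kb between ages (237.5 to 348 kb). Over all autosomal domain ends, 8.97%, 7.01% and 5.63% had an end of the other sample on the same side within 10 kb. There the pairs spanned 6.52% to 11.9% within E9.5, 6.89% to 7.11% within E12.5 and 4.29% to 7.82% between ages, so the kinds of pair overlapped. Coincidence within 10 kb was thus rare both at core ends and over all domain ends. Cores that share a parent domain count its border more than once in the values at core ends.

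The difference was seen on both sides of the cores. On the left, toward the start of the chromosome, the E9.5 samples had a mean reach of 692 kb ± 91.4 (SD, n = 4) and the E12.5 samples of 512 kb ± 25.0 (SD, n = 3), and on the right 675 kb ± 71.1 and 504 kb ± 31.5. By core length, the difference in mean reach was -165 kb for the 252 ends of cores under 300 kb, -207 kb for the 258 ends of cores from 300 to under 500 kb and -202 kb for the 226 ends of cores from 500 kb to under 1 Mb. In each of these classes the ages did not overlap. At the 102 ends of cores of at least 1 Mb the difference was -64.6 kb, and the ages overlapped (579 kb ± 96.5 in E9.5 and 514 kb ± 99.2 in E12.5 samples). Whether the longest cores differ from the others in this respect was not tested.

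Chromosomes went different ways. The mean flank share was higher at E9.5 on 16 of the 19 autosomes, and on 9 autosomes the ages did not overlap. The mean reach was higher at E9.5 on 15, and on 7 the ages did not overlap. The difference in flank share was -24.4 percentage points on chromosome 10 (56 flanks, 82.3% and 58.0%), -21.1 on chromosome 2 (80 flanks, 74.1% and 53.0%) and -20.9 on chromosome 4 (46 flanks, 82.1% and 61.3%). On chromosome 15 it was 18.0 in the other direction (52 flanks, 66.2% and 84.2%), and 9 of its ends, against 0, had a larger reach in every E12.5 sample. On chromosome 18 it was 10.2 (30 flanks, 55.3% and 65.5%), but 3 of its ends had a larger reach in every E9.5 sample and 1 in every E12.5 sample. Over all 838 ends these counts were 98 and 36. In flank share the ages overlapped on chromosomes 15 and 18. Chromosomes 15 and 18 also had more of their whole length in domains at E12.5 (51.0% against 41.3%, and 34.5% against 25.8%), and chromosomes 10, 2 and 4 less (33.9% against 37.5%, 32.6% against 35.8%, and 28.5% against 33.0%). On chromosomes 5, 7, 8, 9, 11 and 19 the flank share was lower at E12.5 but the share of the whole length was higher. On chromosome 8 the flank share differed by -13.7 percentage points, and the whole chromosome had 32.1% against 30.9%. On chromosome 19 these values were -3.03 percentage points and 30.8% against 24.2%. The part of the whole chromosome in the values of its flanks was not tested.

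To measure the flanks in samples that had not chosen them, cores were found again for each sample from 2 other E9.5 and 2 other E12.5 samples, in all combinations, and only the sample left out was measured. On average 517 cores were found this way. The sample left out covered 93.6% ± 3.19 (SD, n = 4) of the core length at E9.5 and 88.5% ± 0.772 (SD, n = 3) at E12.5, so the cores held mostly in samples that had no part in finding them. The mean reach, over the core ends that lay in a domain of the sample left out, was 655, 762, 657 and 695 kb in E9.5 replicates 1 to 4 and 593, 632 and 553 kb in E12.5 replicates 1 to 3. These ends were 84.8% ± 5.66 (SD, n = 4) of all ends at E9.5, with E9.5 replicate 3 at 77.3%, and 78.0% ± 0.701 (SD, n = 3) at E12.5, so the mean was taken over unlike sets of ends. All 4 E9.5 samples lay above all 3 E12.5 samples. The difference was -99.3 kb (exact permutation test over the 35 ways to assign the samples to ages, two-sided, p = 0.0286, the smallest this design allows, and 0.0571 after Benjamini-Hochberg adjustment over 2 tests), so it did not pass at 0.05 after adjustment.

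The share of these flanks in domains was 71.3%, 72.1%, 61.2% and 67.0% in E9.5 replicates 1 to 4 and 61.5%, 61.9% and 62.2% in E12.5 replicates 1 to 3. Here E9.5 replicate 3 fell below all E12.5 samples, so the ages overlapped. The difference of -6.05 percentage points did not pass at the same threshold (p = 0.0857 by the same exact two-sided test, 0.0857 adjusted). Both differences were smaller than the -176 kb and -10.8 percentage points found at the cores of all 7 samples.

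**Figure D5:**
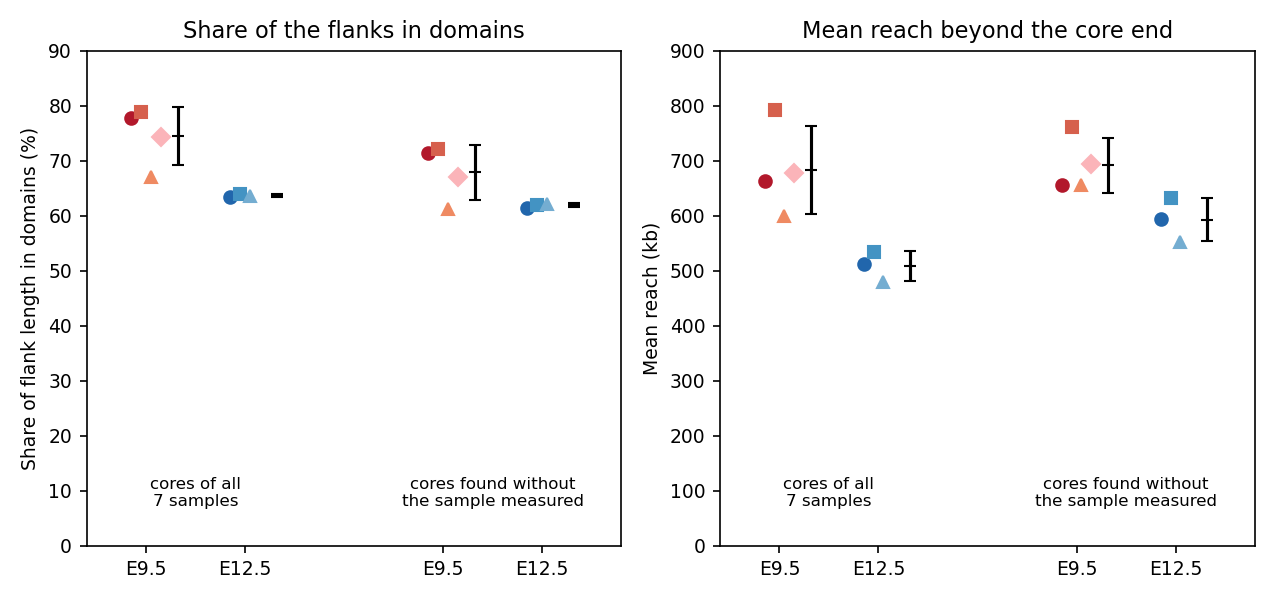
Share of flank length in domains (%, left) and mean reach (kb, right) per sample, for the cores of all 7 samples and for cores found without the sample measured. Points are samples, and the bars to their right give the mean ± SD (n = 4 at E9.5, n = 3 at E12.5). The ages lie closer together when the sample measured had no part in finding the cores, and E9.5 replicate 3 (triangle, 61.2%) then lies below the E12.5 samples in flank share.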

How the data were processed

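The authors deposited 1 list of domains per Lamin B1 sample, with chromosome, start and end in bases and no other column. Bowtie and mm9 are named in the submitters' processing notes. How domains were called, with what threshold and with or without the input, is not given in the sources used here. All positions are whole multiples of 1 kb. Lists were read in bins of 1 kb with numpy 2.4.6 and pandas 2.3.3 under Python 3.11.15, and coordinates are printed 1-based. A chromosome was taken to end at the furthest domain end of any list. The samples are biological replicates according to the design text.

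Cores, flanks and reach were found as the report defines them. The members, the lists and the tests were chosen with earlier results of these data known. Values over the flanks of all 7 samples have no test, since the same lists chose them. The 2 tests use cores found without the sample measured, from 2 samples of each age. They compare the difference of age means over all 35 ways to assign 4 samples to one age and 3 to the other, with the balance of core samples rebuilt each time. Named ends are both flanks of the 3 longest cores, the 5 ends with the largest difference in mean reach per direction among those whose ages do not overlap, and the 5 with the smallest range of reach, in the last 2 cases only flanks of at least 50 kb. The script was tested on simulated lists with moved borders. The annotation and sequence tables at hand are of another build, so no gene was placed and no sequence is printed.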

Additional observations from a re-analysis of the deposited data

Results flagged for a closer look

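Of 54 measures checked in the 4 E9.5 samples for 1 sample standing apart, 2 had one, where chance gives about 2.7 (1 in 20). The median length of all autosomal domains was 227 kb in E9.5 replicate 4, below the 241 to 243.5 kb of the other E9.5 samples. The mean reach at cores of 300 to under 500 kb was 849 kb in E9.5 replicate 2, above the 651 to 675 kb of the others.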

How the results depend on the processing

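The mean reach and the flank share were lower at E12.5 than at E9.5 under every alternative tried except that the median flank share differed by 0 percentage points, since the median flank was wholly in domains at both ages. With 1 sample left out, the difference in mean reach ranged from -196 to -128 kb and that in flank share from -13.8 to -8.83 percentage points. With cores inside domains of at least 6 of 7 samples the difference in mean reach was -91.3 kb, over the core ends that lay in a domain. With reach cut at the outer edge of the flank, chosen after seeing the data, it was -18.1 kb. Without chromosome 16, also chosen afterwards, it was -156 kb.

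The counts of ends whose ages do not overlap depend on how many ends and samples enter. With 1 sample left out, 119 to 179 ends were larger at E9.5 (13.6% to 19.7%) and 54 to 78 at E12.5 (6.08% to 8.59%). Fewer samples bring about such a rise by construction, and no share over all shared stretches is given beside these. The rise passed 1.5 times without E9.5 replicate 3 or any E12.5 sample in both counts, and without E9.5 replicate 1 or 2 in the second. A minimum core length of 100 kb gave 57 ends larger at E12.5 (4.70% of 1214). A minimum of 500 kb gave 12 larger at E12.5 (3.66% of 328) and 31 larger at E9.5 (9.45%). These shares lay near the 4.30% and 11.7% of the report.

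Replicate numbers 1 to 3 are shared by the ages in the labels. The flank shares' deviations from the age mean had correlations of -0.0544 to -0.00852 between same-numbered samples. Between samples of other numbers they were -0.0492 to 0.0595. The labels do not say whether a number stands for anything shared, and these correlations cannot decide it. With the replicate number as a block, which leaves out E9.5 replicate 4, 206 of the 838 ends were larger at E9.5 in all 3 pairs and 95 at E12.5. This condition is looser than no overlap of the ages, and no share over all shared stretches is given beside it. With the same block, the difference at cores found without the sample was -98.4 kb in reach (exact sign-flip p = 0.25, the smallest possible) and -6.35 percentage points in share (p = 0.5). Neither test of such cores passed at 0.05 after adjustment under any alternative. Without 1 sample, with cores from 1 sample of each age, the differences ranged from -108 to -75.7 kb and from -5.12 to -3.53 percentage points, in designs too small to pass. The sign-flip p of the block were not adjusted. Under the other alternatives the adjusted p of the exact permutation test was 0.0571 for reach and 0.0571 to 0.143 for share.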
